A study of Rattus norvegicus with 44 samples.

Results

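The potassium channel genes of the rat cortex were followed through a stroke. They were taken as every gene whose symbol in the deposited normalized table starts with Kcn and a further letter, upper and lower case alike, with Kcnj10 left out. The rule gave 66 genes of the 9763 gene symbols in that table, measured by 76 probes. By subfamily these were 29 pore-forming (alpha) subunits of voltage-gated channels, 7 partner subunits of those channels, 11 inward rectifiers, 10 genes of 2-pore channels and 9 genes of calcium- or sodium-activated channels. All 66 passed the filter on dim and constant probes, and 59 had 1 probe.

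The animals were adult Sprague-Dawley rats with no genetic change, and 1-colour microarrays measured RNA from their cortex. Ischemic rats had the right middle cerebral artery tied permanently together with a transient closure of both carotid arteries (pMCAO), and core, periinfarct (PI) and contralateral cortex were dissected from the same rats at 24 h or 3 d. Sham-operated rats had the surgery without an infarct and gave ipsilateral and contralateral cortex at the same times, and unoperated healthy rats gave ipsilateral cortex. Each of the 11 groups had 4 arrays, each array held RNA pooled from several rats, and a pool keeps its number in every region taken from it: pools 1 to 4 are ischemic rats at 24 h, 9 to 12 ischemic rats at 3 d and 17 to 20 healthy rats. Pooling averages the rats of a pool, so the spread reported here is between pools and not between animals. The cortex was taken whole, and fewer cells of a type and less RNA per cell cannot be told apart in such samples.

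Potassium channels let potassium leave cells down its gradient, and so hold the resting potential and end the action potential. In neurons voltage-gated channels shape spikes and dendritic signals, while inward rectifiers and 2-pore channels set the resting conductance. Glia use inward rectifiers to take up potassium released by firing neurons, and microglia, macrophages and lymphocytes carry channels of their own that set the driving force for calcium entry. When blood flow stops, extracellular potassium rises within the ischemic tissue.

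Values are log2 signals after quantile normalization. A member was called higher or lower when limma gave a Benjamini-Hochberg adjusted p below 0.05 over the 30538 probes tested and the change was at least 2-fold. Errors of log2 fold changes are standard errors (SE) from this fit, with n = 4 pools in each group. The comparisons of 4 ischemic groups with healthy cortex share the same 4 healthy arrays. Between 62.5 and 77.7% of the spots of an array were well above background.

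Pool 11 stood apart among the ischemic rats at 3 d. Relative to the healthy mean, the median of the 66 members on the PI array of pool 11 was higher by 0.010 on the log2 scale, and on the other PI arrays at 3 d it lay between -0.84 and -0.47. The core array of pool 11 was at -0.45, and the other core arrays at 3 d were between -1.66 and -1.20. On the PI array of pool 11 the summed signal of 10 microglia and macrophage markers was 10626, against 57744 to 100662 on the other PI arrays at 3 d and 5993 to 7018 in healthy cortex. Results at 3 d are therefore given with these arrays and without both arrays of pool 11, an alternative chosen after the values were seen.

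**Figure D1:**
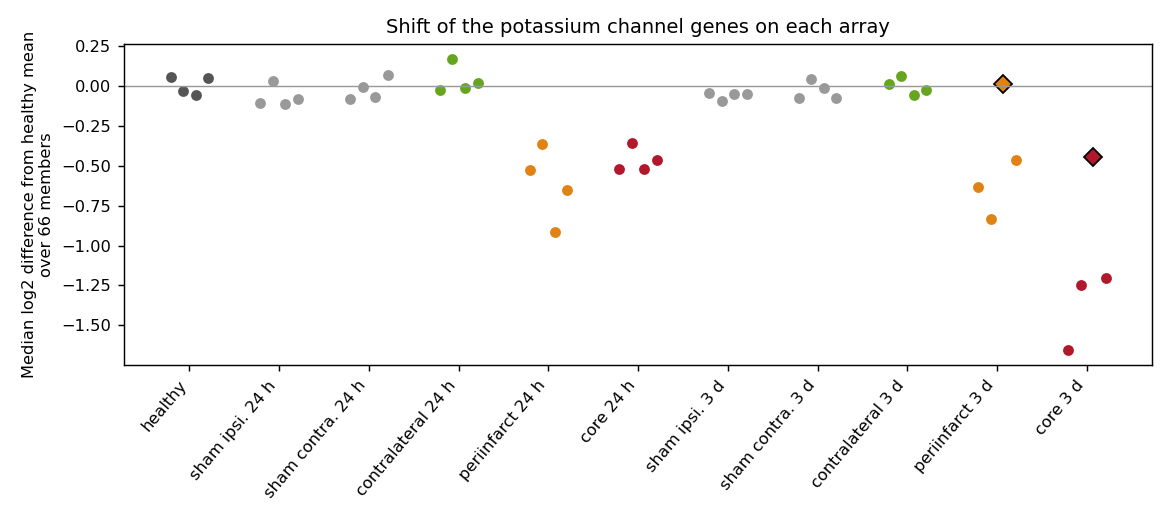
Median log2 difference from the healthy mean over the 66 potassium channel genes (vertical axis) on each of the 44 arrays, by group (horizontal axis), with the core and periinfarct arrays of pool 11 at 3 d drawn as outlined diamonds. Every sham-operated and contralateral array lies between -0.12 and 0.17, and every core array lies at -0.36 or lower.

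Each ischemic group was first compared with healthy cortex. Potassium channel genes called lower outnumbered those called higher in both regions at 24 h and in the core at 3 d. At 24 h the core had 4 members higher and 12 lower than healthy cortex, against a background over 9713 gene symbols tested of 8.04% higher and 6.6% lower. PI cortex at 24 h had 4 higher and 17 lower, where 9.5% of all symbols were higher and 9.94% lower. At 3 d the core had 7 members higher and 36 lower against 17.2% and 13.4% of all symbols, and PI cortex had 5 higher and 5 lower against 9.15% and 1.26%.

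As shares of the 66 members, 18.2% were lower in the core and 25.8% in PI cortex at 24 h, and 54.5% and 7.58% at 3 d. The shares called higher, 6.06, 6.06, 10.6 and 7.58% in the same order, were below the background in each comparison. The median log2 fold change of the members was -0.50 in the core and -0.65 in PI cortex at 24 h, and -1.12 and -0.55 at 3 d, while the median over all symbols was -0.16, -0.13, -0.18 and -0.095. In all, 48 members were called in at least 1 of these comparisons and 18 in none. Kcnn4, Kcnj8, Kcnip2, Kcns1 and Kcnq5l were called in all 4 comparisons.

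Without both arrays of pool 11, 49 members were called in the core at 3 d (7 higher and 42 lower) and 20 in PI cortex (6 higher and 14 lower), in place of 43 and 10. With sham ipsilateral cortex of the same time as control, 10 members were called in the core at 24 h (4 higher and 6 lower) and 6 in PI cortex at 3 d (5 higher and 1 lower), and with only the compared groups in the fit limma called none of the 10 in PI cortex at 3 d, where Kcnn4 had an adjusted p of 0.091. The PI count at 3 d was 6, 5 and 19 without pool 9, 10 and 11. Without pool 11 the background at 3 d was 19.6% higher and 19.4% lower in the core and 12.3% and 2.94% in PI cortex. No share over all symbols was computed with sham control or with only the compared groups. Those counts therefore have no background beside them.

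**Figure D2:**
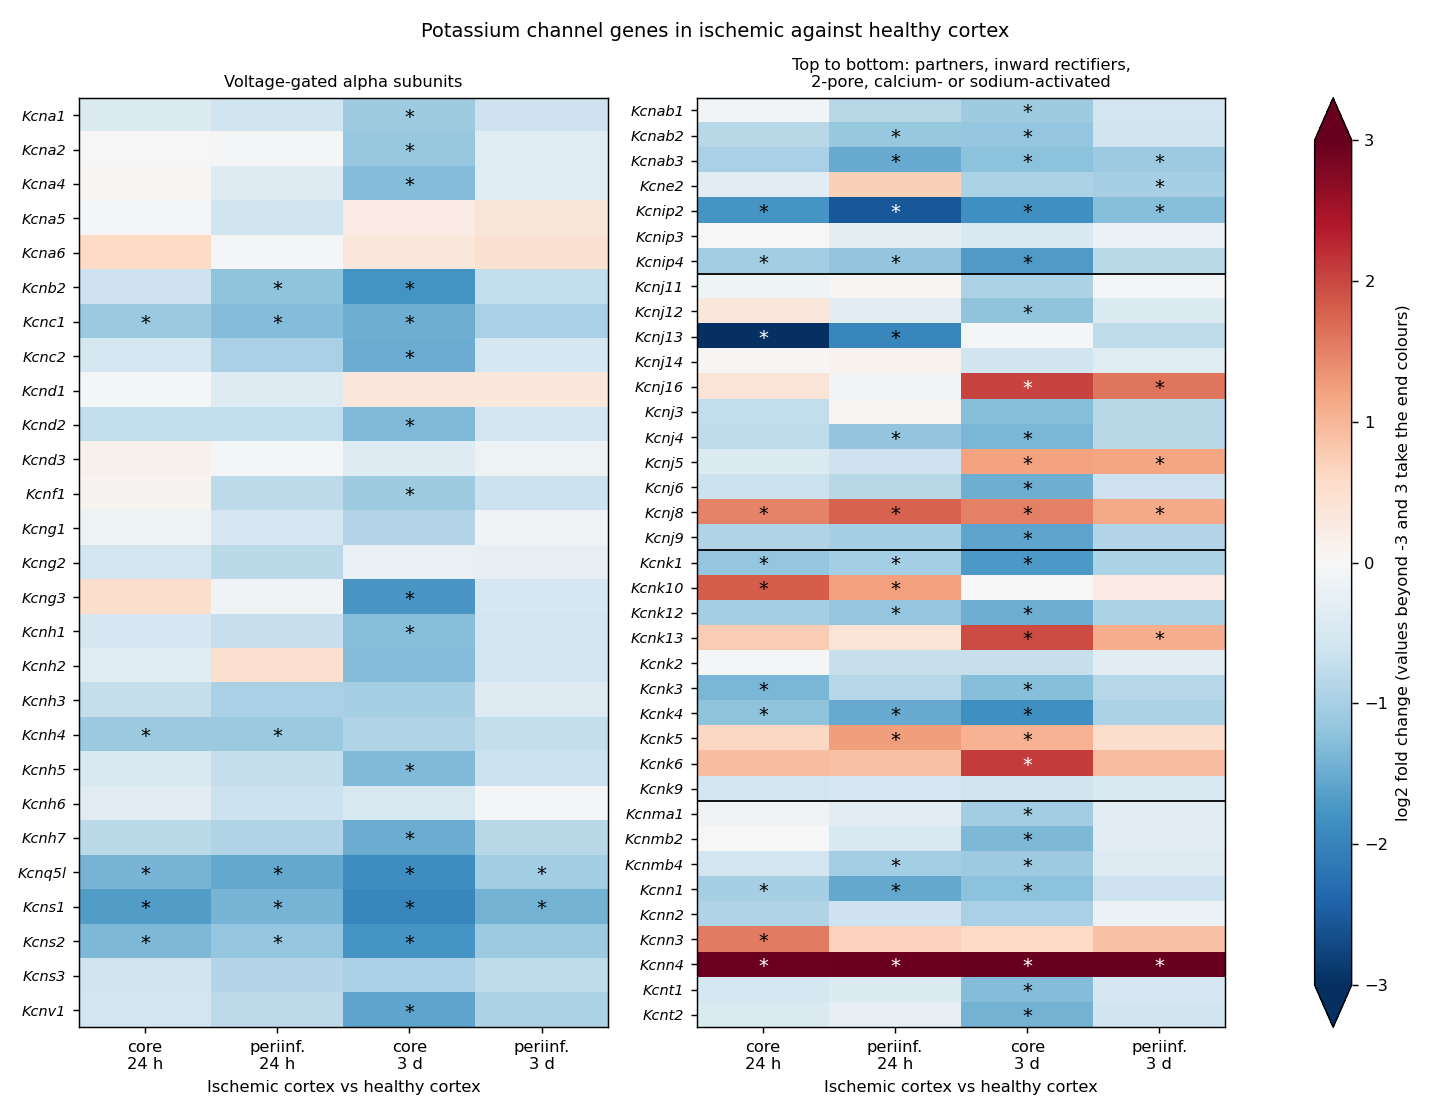
Log2 fold change against healthy cortex (colour, red higher and blue lower) of 64 of the 66 members (rows) in core and periinfarct cortex at 24 h and 3 d (columns), with all 4 pools of each group; an asterisk marks a member called at adjusted p below 0.05 and at least 2-fold. Most rows are blue in the core at 3 d, and the red rows are few, with Kcnn4 at 5.67 there.

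Voltage-gated alpha subunits form the pores that open on depolarization, and no member of this subfamily was called higher in ischemic cortex. Of 29 members, 5 were lower in the core and 6 in PI cortex at 24 h, 17 in the core at 3 d and 2 in PI cortex at 3 d. The shares lower were 17.2, 20.7, 58.6 and 6.90% in this order, against 6.6, 9.94, 13.4 and 1.26% of all symbols. Without pool 11 the counts at 3 d were 20 and 6. The genes that fell in the core at 3 d came from several branches, with Shaker-type subunits (Kcna1, Kcna2 and Kcna4), the delayed rectifier Kcnb2, fast channels of rapidly firing neurons (Kcnc1 and Kcnc2), the dendritic A-type channel Kcnd2 and subunits of the ether-a-go-go group (Kcnh1, Kcnh5 and Kcnh7) among them.

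Kcns1 encodes a subunit that forms no channel alone and changes the gating of delayed rectifiers. Its log2 signal was 10.97, 10.88, 10.78 and 11.18 in healthy pools 17 to 20 and ranged from 9.91 to 10.93 over the 24 sham-operated and contralateral arrays. In the core it was 8.98, 9.57, 8.90 and 9.64 at 24 h and 7.82, 8.87, 10.25 and 9.04 at 3 d. In PI cortex it was 9.41, 9.50, 9.96 and 9.41 at 24 h and 8.88, 8.86, 10.61 and 9.80 at 3 d.

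No ischemic array reached the lowest healthy array, and the array nearest to it was PI pool 11 at 3 d. The log2 fold changes were -1.68 and -1.39 in core and PI cortex at 24 h and -1.96 and -1.41 at 3 d (SE 0.33, adjusted p = 0.00020, 0.0011, 6.6e-06 and 0.0024, limma), that is 3.20-, 2.61-, 3.88- and 2.67-fold lower. Its relative Kcns2, at 5.57 to 6.12 in healthy cortex, 3.73 to 5.31 and 3.81 to 5.52 in core and PI cortex at 24 h and 3.35 to 5.20 and 4.36 to 5.26 at 3 d, fell by 1.35, 1.16 and 1.77 on the log2 scale in the core at 24 h, PI cortex at 24 h and the core at 3 d. Against sham cortex of the same time the 24 h differences of Kcns2 were -0.31 and -0.12 (adjusted p = 0.66 and 0.87, limma), so these calls rest on the healthy control.

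Kcnq5l, listed under that symbol and named after the M-current subunit Kcnq5, lay between 7.90 and 8.08 in healthy cortex and between 7.54 and 7.98 over the sham-operated and contralateral arrays. In the core it was 6.45, 6.67, 6.44 and 6.91 at 24 h and 5.48, 5.96, 7.22 and 5.92 at 3 d. In PI cortex it was 6.60, 6.89, 6.34 and 6.06 at 24 h and 6.52, 6.50, 7.76 and 7.04 at 3 d.

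All 16 ischemic arrays were below the healthy range, with pool 11 closest at 3 d in both regions. Kcnq5l was 2.62- and 2.89-fold lower at 24 h and 3.64- and 2.07-fold lower at 3 d in core and PI cortex. The second probe of this symbol gave log2 fold changes of -0.77 in the core and -0.63 in PI cortex at 24 h and -0.54 in PI cortex at 3 d, which were not called, and -1.47 in the core at 3 d, which was.

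Kcnc1 carries the fast delayed current of rapidly firing interneurons. Its signal was 10.03 to 10.34 in healthy cortex, 8.79 to 9.24 and 8.28 to 9.24 in core and PI cortex at 24 h, and 7.85 to 9.64 and 8.98 to 9.52 at 3 d. It fell by 1.12 and 1.30 at 24 h and by 1.46 in the core at 3 d on the log2 scale (SE 0.21), and its PI value at 3 d was -0.98, just short of the fold minimum. Kcnb2 was at 5.22 to 5.68 in the core and 3.83 to 6.15 in PI cortex at 24 h and at 5.03 to 6.12 in PI cortex at 3 d. Its healthy arrays were at 5.92 to 6.42 and its core arrays at 3 d at 4.06, 4.15, 5.00 and 4.15, a 3.46-fold lower level with no overlap (adjusted p = 2.3e-06, limma). Kcnb2 was also 2.31-fold lower in PI cortex at 24 h. Kcng3, another silent subunit, was 3.35-fold lower in the core at 3 d, where it was well above background on 3 of 4 arrays, and had a log2 fold change of 0.52 in the core at 24 h, where it was not called.

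Several members of this subfamily were not called. Kcna5, Kcna6, Kcnd1, Kcnd3 and Kcnh6 were called in none of the 4 comparisons, with log2 fold changes between -0.64 and 0.60. The summed signal of 13 of 15 neuronal markers (Rbfox3 and Sst were not measured) moved with this subfamily: it was 106411 to 111146 in healthy cortex, 59525 to 76211 in the core and 41411 to 57592 in PI cortex at 24 h, and 30184 to 71988 and 42638 to 83367 at 3 d. Of these 13 markers, 1 and 4 were lower at 24 h and 8 and 3 at 3 d, none was higher and all were well above background on every array of the 5 groups; their part in the channel results was not tested.

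Cytoplasmic beta subunits (Kcnab), Kcne peptides and the calcium-binding Kcnip proteins dock on the pores and set their trafficking and inactivation. None of the 7 members was called higher, and 2, 4, 5 and 3 were lower in core and PI cortex at 24 h and then at 3 d. The shares lower were 28.6, 57.1, 71.4 and 42.9%, against 6.6, 9.94, 13.4 and 1.26% of all symbols. With pool 11 left out 6 and 4 were lower at 3 d.

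Kcnip2 binds the A-type channels of the Kcnd group and is needed for their surface expression. Its log2 signal in healthy pools 17 to 20 was 7.91, 7.97, 8.39 and 8.52. In the core it was 6.08, 6.43, 6.08 and 7.16 at 24 h and 5.75, 5.78, 7.51 and 6.34 at 3 d. In PI cortex it was 6.13, 6.00, 5.08 and 5.35 at 24 h and 7.04, 6.51, 7.34 and 6.76 at 3 d.

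Every ischemic array was below every healthy array, and the lowest group was PI cortex at 24 h. The level there was 5.87-fold lower (log2 fold change -2.55 ± 0.31, adjusted p = 1.4e-07, limma), against 3.39-fold in the core at 24 h and 3.61- and 2.44-fold in core and PI cortex at 3 d. The sham-operated and contralateral arrays ranged from 6.72 to 8.26, and with sham cortex as control the values were -0.86 in the core at 24 h and -0.86 in PI cortex at 3 d, both short of the fold minimum. On the slide shared by core and healthy arrays the difference was -2.09 at 24 h and -0.39 at 3 d, and the array at 3 d there was that of pool 11.

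Kcnip4, another partner of the A-type channels, was at 9.99 to 10.22 in healthy cortex, 8.93 to 9.26 and 8.67 to 9.29 in core and PI cortex at 24 h and 7.87 to 9.67 and 8.76 to 9.98 at 3 d. It fell by 1.04, 1.17 and 1.69 on the log2 scale in the core at 24 h, PI cortex at 24 h and the core at 3 d, and its PI value at 3 d was -0.82. The beta subunit Kcnab3 was at 9.38 to 9.97 in healthy cortex, 8.28 to 9.23 and 7.94 to 8.52 at 24 h and 7.56 to 9.39 and 7.98 to 9.25 at 3 d. It fell by 1.52 in PI cortex at 24 h and by 1.23 and 1.09 in core and PI cortex at 3 d. Kcnip3, which also acts as a transcriptional repressor, was called in none of the comparisons (-0.45 to 0.0097).

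Kcne2, a small partner subunit that choroid plexus also carries, was at 4.86 to 5.33 in the core at 24 h and 3.53 to 5.79 at 3 d. Its healthy arrays were themselves widely spread, at 5.42, 6.18, 4.67 and 5.57. PI cortex was at 5.87, 5.88, 6.22 and 6.70 at 24 h and 4.52, 3.95, 4.76 and 4.59 at 3 d, a fall of 1.71 ± 0.33 between the times (adjusted p = 0.00030, limma) with no overlap. It was called 2.01-fold lower than healthy cortex in PI cortex at 3 d, and against sham cortex its log2 difference there was -0.30 (adjusted p = 0.63, limma).

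Inward rectifiers pass potassium inward more readily than outward and serve as resting, G protein-gated and ATP-sensitive conductances. In this subfamily both directions were seen, with 1 member higher and 1 lower in the core and 1 higher and 2 lower in PI cortex at 24 h, and 3 higher with 4 and 0 lower at 3 d. The shares higher were 9.09, 9.09, 27.3 and 27.3% in this order, against 8.04, 9.5, 17.2 and 9.15% of all symbols. The shares lower were 9.09, 18.2, 36.4 and 0%, against 6.6, 9.94, 13.4 and 1.26%. The higher calls at 24 h were thus near the background. With pool 11 left out 5 and 1 were lower at 3 d and 3 were higher in each region.

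Kcnj8 encodes the pore of the ATP-sensitive channel of pericytes and vascular smooth muscle. Its log2 signal was 9.47, 9.21, 9.50 and 9.77 in healthy pools and 9.03 to 9.89 over the 24 sham-operated and contralateral arrays. In the core it was 10.89, 11.23, 10.83 and 10.97 at 24 h and 11.08, 11.10, 10.32 and 11.46 at 3 d. In PI cortex it was 11.09, 10.72, 11.64 and 11.61 at 24 h, and at 3 d it was 11.39 and 10.83 in pools 10 and 12, 9.56 in pool 11 and between these in pool 9.

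Only PI pool 11 at 3 d, at 9.56, lay within the healthy range. Kcnj8 was 2.82- and 3.42-fold higher in core and PI cortex at 24 h and 2.83- and 2.19-fold higher at 3 d (adjusted p = 3.0e-05, 1.9e-06, 6.9e-06 and 0.0017, limma). The 8 measured markers of pericytes and mural cells (of 9, Acta2 not measured) were read beside it: 0 and 1 were higher and 1 and 0 lower in core and PI cortex at 24 h, with summed signals of 5246 to 7016 and 7157 to 7905 against 6341 to 8416 in healthy cortex. At 3 d the sums were 7505 to 16525 and 6521 to 11388, with 3 and 0 markers higher and medians of 0.61 and 0.46 on the log2 scale; their part in the change of Kcnj8 was not tested.

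Of the 5 members called in all 4 comparisons, only Kcnj8 had a single promoter entry in the RefSeq table (GRCr8) that lay wholly outside the annotated gene. It is shown for that reason. The 250 bases before its annotated start lie at chr4:177246549-177246798 on the minus strand and are printed from 5′ to 3′.
Kcnj8: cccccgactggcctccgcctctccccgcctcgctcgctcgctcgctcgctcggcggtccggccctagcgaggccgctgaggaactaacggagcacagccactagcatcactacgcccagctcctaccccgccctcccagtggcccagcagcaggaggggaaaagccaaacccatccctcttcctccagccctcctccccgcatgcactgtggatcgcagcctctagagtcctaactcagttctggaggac
On both strands, none of the letters TGANTCA (AP-1), TGACGTCA (cyclic AMP response element), ACGTG (core of the hypoxia response element) and of the NF-kappaB consensus occurred in this window, so no base is in capitals. In windows of the same length these motifs, in that order, were found before 6.34, 1.59, 16.6 and 0.0956% of 33469 annotated starts, and before 1, 0, 6 and 0 of the 38 members with exactly 1 entry. Kcnj16 was the member with TGANTCA.

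Kcnj16 and Kcnj5 were called at 3 d and not at 24 h. Kcnj16, which pairs with other inward rectifiers in glia and makes them sensitive to pH, was at 4.64, 4.18, 3.92 and 4.57 in healthy cortex. It was at 6.45, 6.55, 5.48 and 6.97 in the core and 6.40, 6.27, 4.90 and 6.17 in PI cortex at 3 d. All of these were above the healthy arrays, by 4.10-fold in the core and 3.05-fold in PI cortex, and pool 11 was the lowest in each region.

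The sham-operated and contralateral arrays of Kcnj16 reached 5.10, above PI pool 11. At 24 h its log2 fold changes were 0.38 in the core and -0.080 in PI cortex (adjusted p = 0.34 and 0.87, limma), and their signs turned under some settings. Kcnj5, a G protein-gated subunit, was at 6.50 to 6.89 in healthy cortex, at 8.32, 7.68, 8.18 and 7.58 in the core at 3 d and at 7.15 to 8.29 in PI cortex at 3 d. It was 2.29- and 2.28-fold higher in core and PI cortex at 3 d, and at 24 h, with arrays at 6.23 to 6.52 and 5.52 to 6.48, its log2 fold changes were -0.41 and -0.62 and were not called.

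Other G protein-gated subunits had lower calls. Kcnj6 and Kcnj9 were 2.74- and 2.99-fold lower in the core at 3 d, and in the other groups their log2 fold changes lay between -0.99 and -0.63 and were not called. The main probe of Kcnj3 was not called, while another of its probes fell by 1.34, 1.36 and 1.89 in the core at 24 h, PI cortex at 24 h and the core at 3 d. Among strong inward rectifiers Kcnj4 fell by 1.18 in PI cortex at 24 h and 1.37 in the core at 3 d, and Kcnj12 by 1.20 in the core at 3 d.

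Kcnj13, the inward rectifier of choroid plexus and pigment epithelium, gave the widest spread. Healthy arrays were at 6.79, 6.84, 6.70 and 6.49. The core was at 3.14, 5.45, 1.27 and 3.01 at 24 h and 5.14, 6.62, 5.21 and 9.73 at 3 d. In PI cortex the values were 4.41, 6.80, 3.05 and 4.71 and then 5.83, 6.85, 6.91 and 4.13.

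The core at 24 h was below all healthy arrays (adjusted p = 0.00055, limma), but Kcnj13 was well above background on only 1 of 4 arrays there, so no fold is given. In PI cortex at 24 h it was well above background on 3 of 4 arrays, and the call there (lower, adjusted p = 0.037, limma) was lost when any of 7 of the 8 compared arrays was left out, with adjusted p of 0.055 to 0.18; PI pool 2, the highest PI array, was the exception. Of 13 markers of leptomeninges and choroid plexus 10 were measured. In core and PI cortex 5 and 3 of them were lower and 0 and 1 higher at 24 h. Slc22a6 and Wnt6 were then well above background on 0 of 4 core arrays. At 3 d 3 and 2 were lower and 4 and 2 higher. The summed signal of the list was 10769 to 11699 in healthy cortex. At 24 h it was 4541 to 9567 in the core and 9960 to 19015 in PI cortex, where it reached above the healthy range although Kcnj13 was called lower. At 3 d it was 6797 to 44137 in the core and 5889 to 18530 in PI cortex. The highest core value at 3 d was on the array of pool 12, which also had the highest Kcnj13. The part of this tissue in the result was not tested.

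The genes of 2-pore channels encode background channels that respond to stretch, acid or volatile anesthetics, and again both directions were seen. In core and PI cortex 1 and 2 of 10 members were higher and 3 and 3 lower at 24 h, and at 3 d 3 and 1 were higher and 4 and 0 lower. The shares higher were 10, 20, 30 and 10% in this order, against 8.04, 9.5, 17.2 and 9.15% of all symbols. The shares lower were 30, 30, 40 and 0%, against 6.6, 9.94, 13.4 and 1.26%. The higher calls in the core at 24 h and in PI cortex at 3 d were thus near the background. Without pool 11 the PI counts at 3 d were 2 higher and 3 lower.

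Kcnk10, a mechanosensitive channel of the TREK group, was called higher at 24 h and not at 3 d. Healthy arrays were at 5.29, 5.14, 4.83 and 5.53. At 24 h the core was at 5.88, 6.94, 7.30 and 7.91 and PI cortex at 6.27, 6.33, 6.03 and 7.12. At 3 d the core was at 4.86, 5.09, 5.19 and 5.57 and PI cortex at 5.35, 5.66, 5.46 and 5.33.

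The 24 h arrays were all above the healthy ones, by 3.51-fold in the core and 2.36-fold in PI cortex, and the 3 d arrays, at 4.86 to 5.66, overlapped them (log2 fold change -0.017 and 0.26). In the core the fall from 24 h to 3 d was 1.83 ± 0.27 on the log2 scale with no overlap (adjusted p = 2.3e-06, limma). The other TREK-group genes were not called higher. Kcnk4, at 10.22 to 10.68 in healthy cortex, 8.64 to 9.49 and 8.31 to 9.45 at 24 h and 7.83 to 9.67 and 8.95 to 10.20 at 3 d, fell by 1.21, 1.51 and 1.84 in the core at 24 h, PI cortex at 24 h and the core at 3 d, and Kcnk2 was called in none (-0.69 to -0.025).

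Kcnk13 and Kcnk6 were highest in the core at 3 d. Kcnk13, the halothane-inhibited channel that microglia use at rest, was at 8.85, 8.88, 8.81 and 8.64 in healthy cortex. It was at 11.24, 10.78, 10.13 and 10.89 in the core and 10.17, 10.38, 8.89 and 10.06 in PI cortex at 3 d, which is 3.90- and 2.12-fold higher. At 24 h its values were 0.77 in the core and 0.39 in PI cortex, under the fold minimum.

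Kcnk6, a TWIK-type channel also found in macrophages, was at 7.97, 7.85, 7.88 and 8.17 in healthy cortex. In the core at 3 d it was at 10.67, 10.36, 9.33 and 9.94, and in PI cortex at 9.26, 9.59, 8.02 and 8.70. Core arrays were all above healthy ones (4.30-fold, adjusted p = 1.0e-08, limma), and PI pool 11 lay within the healthy range. PI cortex at 3 d was at 0.92 and not called, and without pool 11 it was at 1.21 (adjusted p = 1.3e-05, limma). At 24 h Kcnk6 was at 0.93 in the core and 0.89 in PI cortex, under the fold minimum (adjusted p = 0.0037 and 0.0038, limma).

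Kcnk1, a TWIK-type channel of astrocytes and neurons, was at 9.61 to 9.96 in healthy cortex, 8.25 to 9.18 and 8.29 to 9.24 at 24 h and 7.47 to 9.15 and 8.54 to 9.42 at 3 d. It fell by 1.17, 1.03 and 1.73 in the core at 24 h, PI cortex at 24 h and the core at 3 d, and against sham cortex the 24 h values were -0.66 and -0.52. Kcnk12, the close relative of Kcnk13, was 2.23-fold lower in PI cortex at 24 h and 2.76-fold lower in the core at 3 d. The acid-sensitive Kcnk3 was dim, at 4.45 to 4.88 in healthy cortex, 1.96 to 4.38 and 3.58 to 4.28 at 24 h and 2.83 to 3.90 and 3.41 to 4.14 at 3 d. It was called lower in the core at 24 h and 3 d (adjusted p = 0.014 and 0.013, limma), where it was well above background on only 2 and 1 of 4 arrays, so no fold is given. Kcnk5, a channel of the alkaline-activated kind, was at 5.61 to 5.98 in healthy cortex, 5.50 to 7.04 and 6.46 to 8.45 at 24 h and 5.99 to 7.69 and 5.84 to 6.78 at 3 d. It was 2.40-fold higher in PI cortex at 24 h and 2.06-fold higher in the core at 3 d, and neither passed against sham cortex (0.78 and 0.80).

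**Figure D3:**
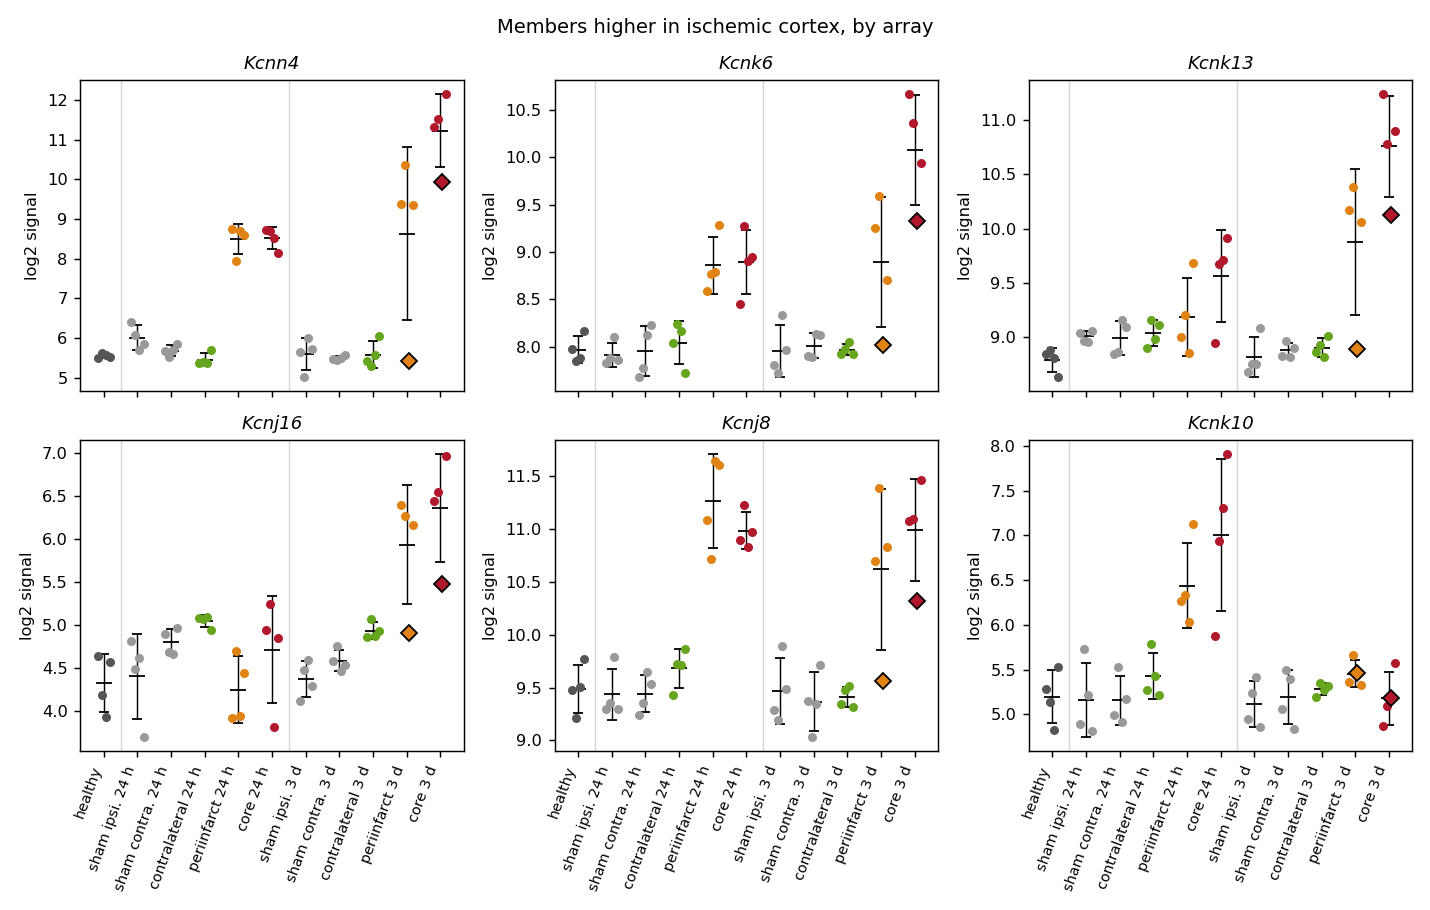
Log2 signal (vertical axes) of 6 members with calls above healthy cortex, by group (horizontal axes), with a point for each of 4 pools, bars for mean ± SD and outlined diamonds for the core and periinfarct arrays of pool 11 at 3 d. Kcnn4, Kcnk6, Kcnk13 and Kcnj16 have their highest mean in the core at 3 d, and Kcnk10 is above the healthy arrays at 24 h and not at 3 d.

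Calcium- and sodium-activated channels couple intracellular calcium or sodium to potassium efflux. Of 9 members, 2 and 1 were higher and 1 and 2 lower in core and PI cortex at 24 h, and 1 and 1 were higher with 6 and 0 lower at 3 d. The shares higher were 22.2, 11.1, 11.1 and 11.1% in this order, against 8.04, 9.5, 17.2 and 9.15% of all symbols. The shares lower were 11.1, 22.2, 66.7 and 0%, against 6.6, 9.94, 13.4 and 1.26%. In the core at 3 d 7 were lower with pool 11 left out.

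Kcnn4, the intermediate-conductance calcium-activated channel of microglia, macrophages and lymphocytes, rose most of the 66 members in each of the 4 comparisons. Its log2 signal was 5.50, 5.62, 5.57 and 5.53 in healthy pools 17 to 20. In the core it was 8.72, 8.71, 8.52 and 8.14 at 24 h and 11.30, 11.51, 9.94 and 12.14 at 3 d. In PI cortex it was 8.76, 7.94, 8.69 and 8.61 at 24 h and 9.39, 10.35, 5.43 and 9.35 at 3 d.

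The 24 sham-operated and contralateral arrays were between 5.03 and 6.41, so each ischemic array except PI pool 11 at 3 d was above every array of the other groups. Kcnn4 was 7.82- and 7.70-fold higher in core and PI cortex at 24 h and 50.9- and 8.44-fold higher at 3 d (log2 fold changes 2.97, 2.95, 5.67 and 3.08, SE 0.52, adjusted p = 4.9e-05, 3.9e-05, 1.7e-10 and 7.2e-05, limma). Without pool 11 the PI value at 3 d was 4.14 ± 0.24. Within the slide that held both groups the difference was 3.18 and 3.04 at 24 h and 4.44 and 4.83 at 3 d.

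Markers of microglia and macrophages were called higher beside Kcnn4 at both times. Kcnk6 and Kcnk13 were not called at 24 h, and at 3 d Kcnk6 was called only in the core. Of 11 markers 10 were measured (Cd163 was not), all of them well above background on every array of the 5 groups, and 5 and 5 were higher at 24 h and 10 and 9 at 3 d in core and PI cortex. Their summed signal was 5993 to 7018 in healthy cortex, 28598 to 29934 and 23524 to 35423 at 24 h, and 81308 to 154150 and 10626 to 100662 at 3 d. Of 7 T cell markers 3 were measured, with 1 and 1 higher at 24 h and 2 and 2 at 3 d, and of 7 neutrophil markers 3 were measured, with 2 higher in each comparison. The part of these cells in the channel results was not tested.

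Among the small-conductance channels that follow neuronal spikes, Kcnn1 was called lower, Kcnn3 higher and Kcnn2 neither. Kcnn1 was at 6.07 to 6.52 in healthy cortex, 5.06 to 5.63 and 4.66 to 4.95 at 24 h and 4.44 to 6.13 and 5.60 to 5.80 at 3 d. It was 2.00- and 2.90-fold lower at 24 h and 2.36-fold lower in the core at 3 d, although its core value at 24 h was -0.16 against sham cortex. Kcnn2 had log2 fold changes of -0.90, -0.63, -0.97 and -0.17 and was not called. Kcnn3 was dim, at 3.88, 3.04, 3.50 and 4.12 in healthy cortex and 0.70 to 4.23 over the sham-operated and contralateral arrays. It was called higher in the core at 24 h, at 4.60, 5.15, 5.47 and 5.60 (adjusted p = 0.0066, limma). At these low levels no fold is given. Kcnn3 was not called elsewhere, with arrays at 3.65 to 5.08.

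In the core at 3 d the large-conductance channel Kcnma1 fell by 1.04, its beta subunits Kcnmb2 and Kcnmb4 by 1.34 and 1.10 and the sodium-activated Kcnt1 and Kcnt2 by 1.30 and 1.42 on the log2 scale. Kcnmb2 was well above background on 3 of 4 of these arrays. At 24 h the core values of the main probes of these 5 genes lay between -0.58 and -0.0081 and none was called. A second probe of Kcnt2 was called lower in the core at 24 h (-1.11) and 3 d (-2.11). It was also called in PI cortex at 3 d (-1.01) and not at 24 h (-0.67). In PI cortex Kcnmb4 was called at 24 h (-1.03).

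**Figure D4:**
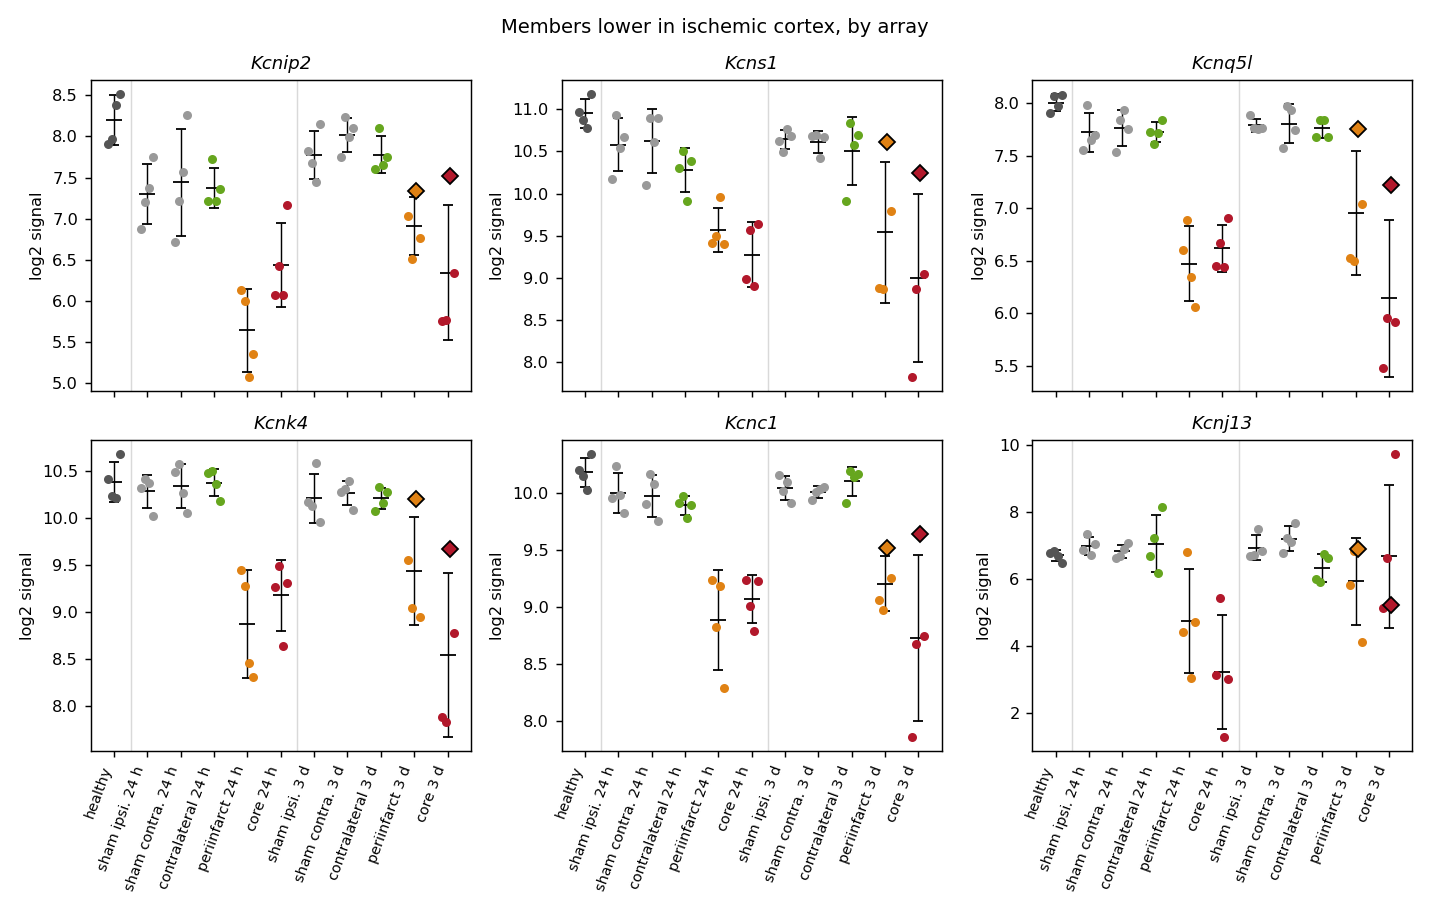
Log2 signal (vertical axes) of 6 members with calls below healthy cortex, by group (horizontal axes), with a point for each of 4 pools, bars for mean ± SD and outlined diamonds for the core and periinfarct arrays of pool 11 at 3 d. Kcnip2, Kcns1 and Kcnq5l are below the healthy arrays in all ischemic groups, and Kcnj13 spreads from 1.27 to 5.45 in the core at 24 h.

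No member was called between core and PI cortex at 24 h, and 4 were at 3 d. At 24 h limma called 0 of the 66 (0.0412% of all symbols higher in the core and 0.124% lower), with a median difference of 0.20. An unadjusted p below 0.05 was found for 13 members and for 3879 of all 30538 probes (limma). At 3 d Kcnn4 and Kcnk6 were higher in the core by 6.03- and 2.27-fold and Kcnmb2 and Kcnb2 were lower by 2.04- and 2.06-fold (adjusted p = 0.0031, 0.0034, 0.011 and 0.013, limma), where 5.17% of all symbols were higher and 0.556% lower. The median over the members at 3 d was -0.54.

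The count at 3 d rested on single arrays: it was 1 without core pool 9 or without PI pool 11, 19 without core pool 11, 12 without PI pool 10 and 7 without PI pool 12. Without both arrays of pool 11 it was 11, with 3 higher, Kcnn4 and Kcnk6 among them, and 8 lower, against 3.67% and 1.70% of all symbols. With the pool as a replicate block among the core and PI arrays, which come from the same rats, no member was called at 3 d. No core array shared a slide with a PI array of the same time, so no difference within a slide could be had.

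The change of the core minus PI difference from 24 h to 3 d was called for 11 members, 2 upward and 9 downward, against 3.32% and 3.35% of all symbols. Kcnn4 and Kcnk6 went upward by 2.57 ± 0.73 and 1.15 ± 0.34 on the log2 scale. Kcnb2, Kcnmb2, Kcnj12, Kcnc2, Kcnip2, Kcna4, Kcnmb4, Kcnk2 and Kcnj6 went downward, from -1.63 for Kcnb2 to -1.01 for Kcnj6. For each of these 9 the estimated difference was above 0 at 24 h and below 0 at 3 d. At 24 h none of these differences was called, and at 3 d only those of Kcnb2 and Kcnmb2 were, so a crossing of the regions is not shown for the single genes. With the pool as a random effect the number called was above 11, as given below. It was 0 with the replicate block or with only the compared groups in the fit. Among the arrays at 3 d it was 0, 5 and 31 without core pool 9, 10 and 11 and 19 and 2 without PI pool 10 and 11. Among those at 24 h it was 7 and 6 without core pool 2 and 4 and 17, 5 and 3 without PI pool 2, 3 and 4.

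**Figure D5:**
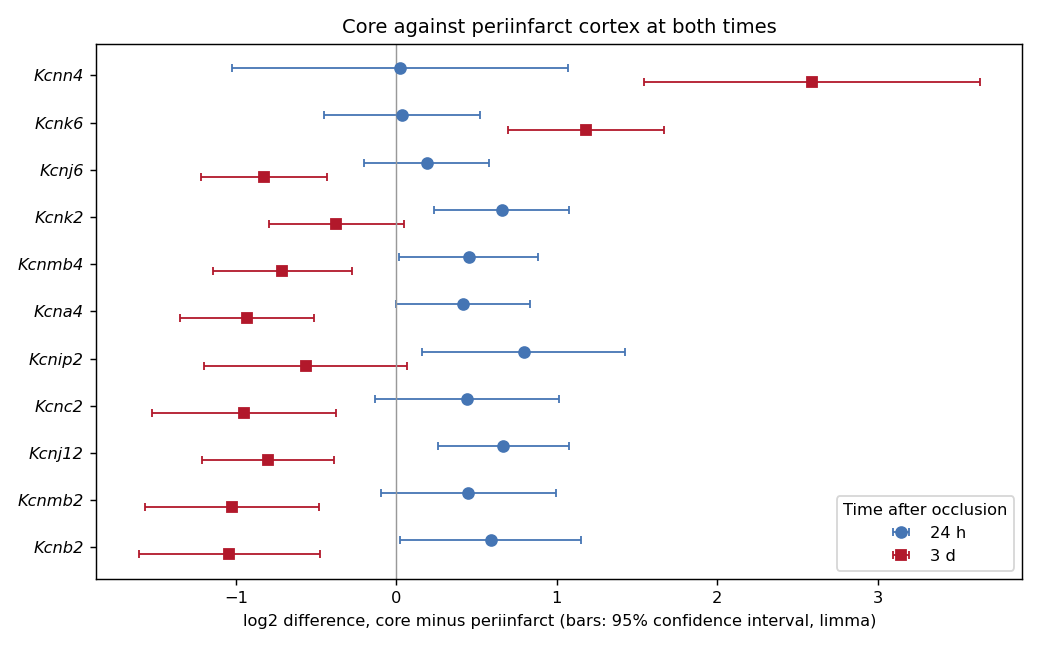
Log2 difference between core and periinfarct cortex (horizontal axis, core minus periinfarct, with 95% confidence intervals from limma) at 24 h (circles) and 3 d (squares) for the 11 members (rows) whose difference changed between the times. Kcnn4 moves from 0.022 to 2.59, and the estimates of the lower 9 rows move from above 0 to below 0, with several intervals that include 0.

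In the core 6 members rose and 9 fell between the times, against 12.9% and 4.45% of all symbols. Those that rose were Kcnn4, Kcnk6, Kcnk13, Kcnj16 and Kcnj5, by 2.70, 1.18, 1.20, 1.65 and 1.61 on the log2 scale, and Kcnj13, whose arrays at the 2 times overlapped and which was well above background on only 1 of 4 arrays at 24 h, so that the size of its rise is not given. Kcng3 fell by 2.26, Kcnk10 by 1.83, Kcnj12 by 1.53, Kcna4 by 1.34 and Kcnmb2 by 1.33, and Kcna2, Kcnb2, Kcnf1 and Kcnv1 by 1.01 to 1.17. These counts were 7 and 20 without both arrays of pool 11, against 15.2% and 7.32% of all symbols. With the slide as a block they were 7 and 16.

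In PI cortex 3 members rose and 1 fell from 24 h to 3 d, against 4.61% and 2.69% of all symbols. Kcnj5 and Kcnj16 rose by 1.81 and 1.69, Kcnip2 by 1.27 and Kcne2 fell by 1.71. Kcnip2 at 3 d was still below healthy cortex in every pool, as given above. With both arrays of pool 11 left out the counts were 6 and 1, against 7.37% and 2.77% of all symbols. The share of called members that rose was 75% with quantile normalization and 60% with scaling to the 75th percentile.

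No member was called in sham ipsilateral cortex against healthy cortex at 24 h or 3 d, or in contralateral cortex against sham contralateral cortex at 24 h or 3 d, and 0% of all symbols were called in each of these comparisons. By limma 7, 1, 1 and 0 members had an unadjusted p below 0.05, where 6779, 247, 682 and 428 of all 30538 probes did. The log2 differences of the members ranged from -1.04 to 0.66, -0.71 to 0.51, -0.35 to 0.92 and -0.87 to 0.35. Medians over the members were -0.059, -0.053, 0.042 and 0.0066. Without pool 8 of the sham rats 1 member was called lower in the ipsilateral cortex at 24 h.

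Transporters, pumps and partner proteins outside the Kcn symbols were read from a separate list of 24 genes, of which 20 were measured. In core and PI cortex 6 and 8 were lower at 24 h and 11 and 1 at 3 d, and 0, 1, 1 and 0 were higher. Their medians were -0.56, -0.87, -1.12 and -0.48.

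Dpp6 and Dpp10, which with Kcnip proteins complete the A-type channel, fell by 1.09 and 1.13 in the core at 24 h, by 1.46 and 1.55 in PI cortex at 24 h and by 1.51 and 1.31 in the core at 3 d. Slc12a5, the neuronal potassium-chloride cotransporter, fell by 1.52 in the core at 3 d. Slc12a7, another potassium-chloride cotransporter, rose by 1.15 in PI cortex at 24 h and 1.95 in the core at 3 d.

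For 7 members the table held more than 1 probe, and the probe with the highest mean was used. Of 40 pairs of another probe and its main probe in the 4 comparisons, 15 differed in their call and 0 were called in opposite directions. Opposite calls need a call on both probes, so this 0 does not show that the probes share a direction. For Kcnj3 in PI cortex at 24 h the main probe was at 0.052 and another, called lower, at -1.36.

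Other cell types were read from lists of the same kind. Of 10 astrocyte markers 2 were higher in each of the 4 comparisons and 3 and 2 were lower in core and PI cortex at 24 h. Of 8 oligodendrocyte markers measured 2 and 3 were lower at 24 h and none was called at 3 d. Of 7 endothelial markers measured 0 and 1 were higher and 1 and 1 lower at 24 h, and none was called at 3 d. Their part in the channel results was not tested.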

How the data were processed

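RNA of rat cortex was measured on 44 1-colour Agilent whole-genome arrays. Per the file headers the deposited intensities are processed signals of Agilent Feature Extraction 10.7.3.1, subtracted for background and detrended within each array. The authors' table holds log2 values after quantile normalization and was used to choose the members and as an alternative. The labels' protocols name a miRNA labelling kit, while the study's methods name Agilent's one-colour expression protocol. The arrays are of an expression design.

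Signals of spots that are not controls were set to at least 1, taken to log2 and quantile-normalized (limma 3.58.1, R 4.3.3), outlier spots were left out, and spots of a probe were averaged. A member value was missing for Kcnab2 in healthy pool 18. Probes were kept when above the 20th percentile in 75% of the arrays of a group, present or marginal in 75%, and with a coefficient of variation of log2 signal above 2.5%, which left 30538 of 41012. One mean per group was fitted over all arrays (33 residual degrees of freedom), and p-values were adjusted by Benjamini-Hochberg over all probes kept. A gene was read by its brightest probe. The number of arrays limits the precision. The lists of cell type markers and potassium handling genes were described by counts. The fit was tested on simulated data.

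The members and lists were chosen with earlier results of these data known. Array values are given for members called in at least 3 of the 4 comparisons with healthy cortex and for the 5 largest rises and 5 largest falls in each, 23 in all. Labels give core, PI and contralateral cortex of 1 pool the same rat number, so numbers pair these samples: the mean correlation of deviations from the group means between core and PI arrays of a pool was 0.15 at 24 h and -0.0037 at 3 d. Alternatives were 75th percentile scaling, normexp background correction, the authors' table, other probe filters, outlier spots kept, only the compared groups, slide or pool as a block, no fold minimum, the mean of a gene's probes, sham or contralateral cortex as control, and each array left out. Promoter sequences are from RefSeq (GRCr8), where 38 of the 66 members had an entry. Values of some single genes are not reported here, and the counts include them.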

Additional observations from a re-analysis of the deposited data

Results flagged for a closer look

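Among 115 combinations of a named member and an ischemic or healthy group, 5 had an array far from the other 3, with a gap to the nearest that exceeded Dixon's 95% critical value as a share of the range of the group. Chance gives about 1 in 20 such groups. In the core at 3 d, pool 11 was high for Kcnb2 (5.00 against 4.06 to 4.15, gap 0.902 of the range) and Kcnip4 (9.67 against 7.87 to 8.08, gap 0.885). In PI cortex at 3 d, pool 11 was low for Kcnj16 (4.90 against 6.17 to 6.40, gap 0.845) and pool 9 was high for Kcnn1 (5.80 against 5.60 to 5.64, gap 0.840). In PI cortex at 24 h, pool 3 was high for Kcns1 (9.96 against 9.41 to 9.50, gap 0.837).

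For 11 members the difference between core and PI cortex was not the same at 24 h and 3 d by the interaction in limma. The change on the log2 scale was 2.57 for Kcnn4, 1.15 for Kcnk6, -1.01 for Kcnj6, -1.03 for Kcnk2, -1.16 for Kcnmb4, -1.35 for Kcna4, -1.36 for Kcnip2, -1.39 for Kcnc2, -1.47 for Kcnj12, -1.48 for Kcnmb2 and -1.63 for Kcnb2. With the pool as a replicate block 0 members were called, and with the pool as a random effect more than 11 were, as given below. These calls thus depend on how the pool is modelled.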

How the results depend on the processing

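Counts of called members moved with the settings below, and the cause was not tested. Shares over all symbols were computed only for the main fit and without pool 11. With normexp 8, 9, 24 and 3 members were called in place of 16, 21, 43 and 10 in core and PI cortex at 24 h and then at 3 d, 2 between core and PI cortex at 3 d, 9 and 1 from 24 h to 3 d in core and PI cortex and 6 in the change of the core minus PI difference. Without a fold minimum the counts were 34, 39 and 28 (core and PI at 24 h, PI at 3 d), 27 between regions at 3 d, 36 and 12 from 24 h to 3 d and 17 in the change. With only the compared groups 0 were called in PI cortex at 3 d, between core and PI cortex at 3 d and in the change, which also had 6 with the slide as a block and 18 with the pool as a random effect, and the core from 24 h to 3 d had 23 with the slide. With sham cortex as control the core at 24 h had 10 and PI cortex at 3 d had 6, and with contralateral cortex of the same pools and a replicate block 9 and 4. The replicate block of the pool between core and PI cortex gave 0 at 3 d and 0 in the change. Without pool 11 (chosen after seeing the data) the counts were 20 in PI cortex at 3 d, 11 between regions, 27 and 7 from 24 h to 3 d and 24 in the change. Of these 24, 4 were upward and 20 downward, against 4.83% and 7.08% of all symbols. Leaving out 1 array gave 13 to 19, 17 to 24, 36 to 49 and 5 to 19 against healthy cortex, 1 to 19 between regions at 3 d, 11 to 27 and 4 to 7 between times, 0 to 31 in the change and 0 to 1 in sham cortex at 24 h. Of 60 calls of named members against healthy cortex, 26 of the 57 with a value were lost with normexp, 20 with sham and 20 with contralateral control, and 0 turned. Signs turned only for values not called: Kcne2 in the core at 24 h (0.32 with sham control), Kcnj16 in the core at 24 h (-0.34 with contralateral control) and in PI cortex at 24 h (0.29 with 75th percentile scaling, -0.23 to 0.032 leaving out 1 array), Kcnj13 in the core at 3 d (0.25 normexp, 0.44 slide, 0.35 contralateral, 0.46 without pool 11, -1.05 to 0.48 leaving out 1 array) and Kcnk10 in the core at 3 d (0.051 percentile, 0.056 slide, 0.065 sham, -0.15 to 0.095 leaving out 1 array). Scaling to the 75th percentile moved the median of all probes by 0.27 in PI cortex at 24 h, 0.15 in sham ipsilateral cortex at 24 h, -0.13 for core against PI cortex at 24 h, -0.18 from 24 h to 3 d in PI cortex and 0.18 in the change.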
